A study of Homo sapiens with 9 samples.

Results

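The genes described here build the route by which a human cell makes and ships secreted and membrane proteins: 66 genes of the signal recognition particle, the endoplasmic reticulum (ER) translocon, signal peptidase, ER folding enzymes, the COPII and COPI vesicle coats, their cargo receptors and related SEC genes. They were chosen by gene symbol among the probes with deposited log2 values, all of which were detected on at least 4 of 9 arrays. No change between groups enters the rule, but detection does. A gene entered if its symbol began with SEC, TMED, SRP, SSR, COP, KDELR, PDIA, TRAM, SPCS or CREB3L in the forms used for this pathway, or was P4HB, CALR, CANX, SURF4, MIA3, SAR1A or SAR1B. The rule found 88 probes for 66 of the 11991 genes tested, and a gene with several probes was represented by the brightest. SEC14L1P1 and TMED10P1 are pseudogenes that share sequence with SEC14L1 and TMED10, so their values are uncertain. Other names the rule covers, such as KDELR2, PDIA3, SEC31A or CREB3L1, are not analysed here.

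The study derived perivascular progenitor cells, meant to resemble the pericytes that wrap small vessels, from the human embryonic stem cell line H9 and profiled RNA on Illumina bead arrays. The perivascular progenitors were cells of dissociated embryoid bodies that stuck to collagen in the endothelial growth medium EGM2-MV and were then passaged. The embryoid bodies, floating aggregates of H9 cells, were kept for 6 days with 40 nM BMP4, which helps to pattern the early mesoderm. The undifferentiated human embryonic stem cells (hESC) grew on mouse embryonic fibroblast feeders with 4 ng/ml bFGF. Each of the 3 groups has 3 arrays, and all 9 come from the same cell line. The labels do not say whether the 3 arrays of a group are separate cultures, so p-values measure the spread between these samples, which may be technical. Cell type, medium, surface and feeders change together between groups and cannot be told apart.

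Proteins bound for secretion carry a signal peptide that the signal recognition particle reads as they leave the ribosome. The ribosome is brought to the translocon, the chain is threaded into the ER, signal peptidase trims it, and chaperones and disulfide isomerases fold it. COPII coats carry cargo from ER exit sites towards the Golgi, while COPI coats return escaped ER proteins, which KDEL receptors recognise by a short tail. Cells that lay down collagen lean on this route heavily, since procollagen is long, rigid and hydroxylated in the ER. When unfolded proteins build up, the membrane-bound factor ATF6, and in other cells its relatives of the CREB3 family, are cut free by Golgi proteases and bind promoters of such genes.

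The start regions of members that the results turn on are shown first, with letters searched for in them. RefSeq start regions (GRCh38.p14, 250 bases before to 50 after the start) matched 59 of the 66 members. The letters TGACGTGG, a form bound by ATF6, were read on either strand and stood in 11 of these 59 members (18.6%), against 253 of 27305 genes in all (0.927%). The longer ER stress element, CCAAT and CCACG with a fixed spacer between them, stood in 3 of 59 members (5.08%), against 25 of 27305 genes (0.0916%). The palindrome TGACGTCA, the cAMP response element, stood in 1 of 59 (1.69%), against 614 of 27305 (2.25%). The 27305 are all genes with a start region, not the 11991 tested, and unlike the members they were not filtered for detection. These shares are a description of letters in a window and not of sites in use. TGACGTGG stood in COPA, COPB1, COPB2, KDELR3, SEC16A, SEC23A, SEC24A, SEC62, SRP19, SSR3 and SSR4. The ER stress element stood in CALR, CANX and PDIA6, and TGACGTCA in CREB3L2, and no match overlapped one of another motif. Of the 40 matched members that rose in progenitors over hESC, 9 held TGACGTGG, and of the other 19, 2 did.

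8 of these regions follow, chosen after values and matches were known. KDELR3, SEC23A and SEC62 are the carriers of TGACGTGG with the largest rises, COPA, COPB1 and COPB2 are subunits of the same coat, and CALR and PDIA6 hold the ER stress element. They lie at chr22:38467846-38468145 (+ strand, KDELR3), chr14:39103186-39103485 (- strand, SEC23A), chr3:169966557-169966856 (+ strand, SEC62), chr1:160343201-160343500 (- strand, COPA), chr11:14499762-14500061 (- strand, COPB1), chr3:139389598-139389897 (- strand, COPB2), chr19:12938359-12938658 (+ strand, CALR) and chr2:10812736-10813035 (- strand, PDIA6). Each is written 5′ to 3′ on the gene's own strand, and capitals mark the match. TGACGTGG reads CCACGTCA where it lies on the opposite strand.
KDELR3: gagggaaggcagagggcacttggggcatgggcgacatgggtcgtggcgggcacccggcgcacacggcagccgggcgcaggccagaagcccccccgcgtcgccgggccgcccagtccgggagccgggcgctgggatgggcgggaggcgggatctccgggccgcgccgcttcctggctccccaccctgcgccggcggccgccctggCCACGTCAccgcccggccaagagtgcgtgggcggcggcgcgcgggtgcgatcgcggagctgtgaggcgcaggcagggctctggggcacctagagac
SEC23A: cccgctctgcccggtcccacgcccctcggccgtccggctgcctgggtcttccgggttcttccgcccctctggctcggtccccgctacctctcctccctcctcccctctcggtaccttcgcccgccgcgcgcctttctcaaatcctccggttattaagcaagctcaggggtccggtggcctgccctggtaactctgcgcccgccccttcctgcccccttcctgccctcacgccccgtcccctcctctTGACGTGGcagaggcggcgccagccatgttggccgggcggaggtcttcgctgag
SEC62: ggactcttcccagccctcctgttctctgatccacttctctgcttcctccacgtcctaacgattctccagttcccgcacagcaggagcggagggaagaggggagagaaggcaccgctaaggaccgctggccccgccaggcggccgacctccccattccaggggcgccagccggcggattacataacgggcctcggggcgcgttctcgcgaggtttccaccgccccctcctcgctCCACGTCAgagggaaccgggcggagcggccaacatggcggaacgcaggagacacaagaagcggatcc
COPA: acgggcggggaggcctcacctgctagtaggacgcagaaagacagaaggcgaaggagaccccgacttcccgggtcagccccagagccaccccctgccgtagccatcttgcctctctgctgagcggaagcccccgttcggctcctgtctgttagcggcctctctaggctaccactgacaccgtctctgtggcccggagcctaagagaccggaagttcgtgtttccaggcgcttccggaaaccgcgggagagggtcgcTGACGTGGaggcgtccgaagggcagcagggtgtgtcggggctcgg
COPB1: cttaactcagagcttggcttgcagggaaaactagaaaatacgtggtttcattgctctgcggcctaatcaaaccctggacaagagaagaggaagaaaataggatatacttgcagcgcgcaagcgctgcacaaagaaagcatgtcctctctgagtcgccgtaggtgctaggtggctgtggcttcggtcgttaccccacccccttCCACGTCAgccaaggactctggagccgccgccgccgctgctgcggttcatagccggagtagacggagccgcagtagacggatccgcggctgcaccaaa
COPB2: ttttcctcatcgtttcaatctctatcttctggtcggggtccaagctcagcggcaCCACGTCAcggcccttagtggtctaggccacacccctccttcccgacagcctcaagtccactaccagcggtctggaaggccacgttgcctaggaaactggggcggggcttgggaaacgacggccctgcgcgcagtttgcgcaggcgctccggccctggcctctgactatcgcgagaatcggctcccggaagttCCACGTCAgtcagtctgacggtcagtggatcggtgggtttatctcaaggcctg
CALR: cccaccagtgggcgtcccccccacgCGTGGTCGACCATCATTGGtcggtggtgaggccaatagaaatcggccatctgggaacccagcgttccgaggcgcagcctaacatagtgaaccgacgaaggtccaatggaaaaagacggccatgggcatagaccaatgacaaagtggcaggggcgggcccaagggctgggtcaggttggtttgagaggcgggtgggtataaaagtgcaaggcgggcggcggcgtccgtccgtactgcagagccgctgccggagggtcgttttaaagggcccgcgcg
PDIA6: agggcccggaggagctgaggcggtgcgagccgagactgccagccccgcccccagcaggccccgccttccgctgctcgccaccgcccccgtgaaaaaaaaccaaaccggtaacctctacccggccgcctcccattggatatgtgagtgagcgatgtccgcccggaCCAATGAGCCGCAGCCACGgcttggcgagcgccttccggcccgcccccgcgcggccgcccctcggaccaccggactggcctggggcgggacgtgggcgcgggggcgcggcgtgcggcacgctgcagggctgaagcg
Counted from the start as base 1, with the base before it as −1, the match began at −46 in KDELR3, −4 in SEC23A, −17 in SEC62, −48 in COPB1 and 6 in COPA. COPB2 held 2 matches, at −196 and −3. The ER stress element began at −225 in CALR and −86 in PDIA6, whose other listed start region held none.

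Between 17964 and 21172 probes per array were detected, 38% to 44.7% of the probes in the table. Within groups, hESC 3 and progenitor 2 stood apart: 426 to 445 and 600 to 657 genes lay at least 2-fold from the other arrays of their group. Among the remaining same-group arrays, hESC 1 and 2 had 2 such genes and progenitors 1 and 3 had 29. Of the members, at most 2 were that far apart within any such pair, which involved COPG2 and SSR3. All 6 stem cell markers tested fell in progenitors, where POU5F1, SOX2, NANOG and L1TD1 were not detected, and their summed linear intensity was 539 to 611 in progenitors, 69509 to 69865 in embryoid bodies and 65626 to 77544 in hESC. NANOG was also undetected on hESC 3, at 5.23, against 11.23 and 11.18 on the other hESC arrays. Of 9 perivascular markers 5 could be tested: PDGFRB, ACTA2 and ANPEP rose in progenitors, while RGS5 and KCNJ8 fell, and the summed level was 9783 to 14157 in progenitors, 715 to 788 in embryoid bodies and 852 to 1126 in hESC. Of 5 stromal markers, COL1A1, COL3A1, LUM and DCN rose and THY1 fell (summed level 106148 to 163526 in progenitors, 5338 to 5738 in embryoid bodies and 4484 to 6641 in hESC). Of 4 epithelial markers 3 could be tested. EPCAM and CDH1 fell, CDH1 being undetected in progenitors, and KRT8 rose. The summed level of the 3 was 6981 to 9893 in progenitors, 25779 to 25953 in embryoid bodies and 18191 to 25674 in hESC. Of 6 endothelial markers 2 could be tested. KDR fell by 1.33 in progenitors over hESC, while TEK changed by 1.03 (adjusted p = 0.05, just missing the threshold). Over embryoid bodies TEK rose by 2.97 (adjusted p = 0.000175). The summed level of KDR and TEK was 1601 to 3057 in progenitors, 705 to 737 in embryoid bodies and 1175 to 2135 in hESC. Of 4 hematopoietic markers 2 could be tested. PTPRC and CD34 fell, PTPRC being undetected in progenitors (summed level 100 to 127 in progenitors, 155 to 221 in embryoid bodies and 174 to 185 in hESC). The part of these cell type differences in the results below was not tested, and in such bulk RNA fewer cells of a type and less RNA per cell cannot be told apart.

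Most of the pathway was higher in progenitors than in hESC. In what follows a gene rose or fell if limma's moderated test gave an adjusted p under 0.05 over all 11991 genes, at any size of change, and levels are normalized log2 intensities, on which a difference of 1 is 2-fold. By this measure 46 of the 66 members rose in progenitors over hESC, 6 fell and 14 passed in neither direction. Of all genes 30.9% rose and 37.5% fell, 68.5% in all. A rise of at least 2-fold was found for 24 members and a fall of that size for 3, beside 14.7% and 19.1% of all genes (33.7% together). The members' median change was 0.79, against −0.07 over all genes. Every progenitor array lay above every hESC array for 48 members and below for 8, beside 32.4% and 39% of all genes. Among the steps with more than 1 gene, the median changes were largest for cargo receptors (median 1.00 over 12 genes) and COPI (1.05 over 7), and the medians of the signal recognition particle (−0.11 over 6) and signal peptidase (−0.15 over 5) were below 0.

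**Figure D1:**
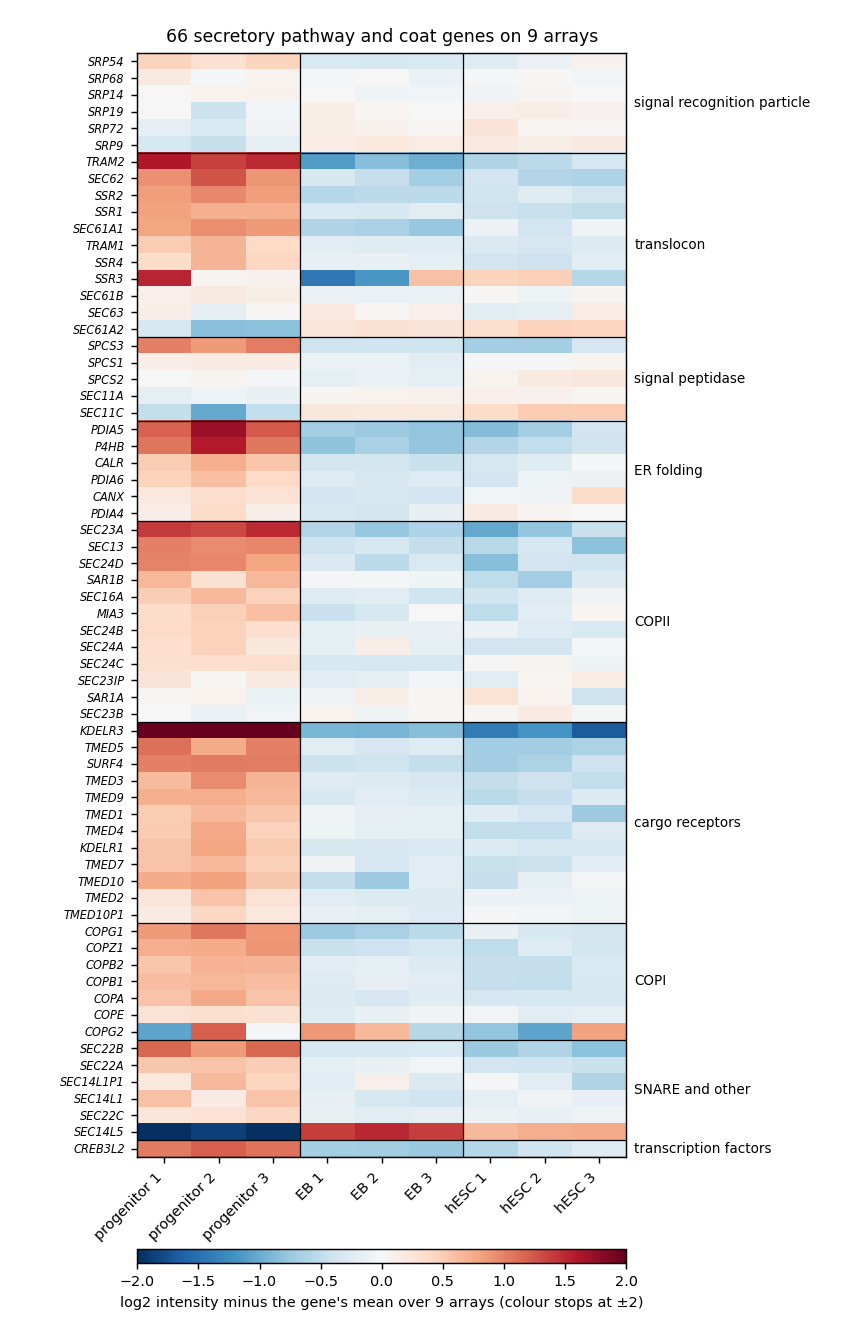
Normalized log2 intensity of each of the 66 members (rows, grouped by step of the pathway) on the 9 arrays (columns), drawn as the difference from the gene's mean over all arrays, with red higher and blue lower. The 3 progenitor columns are red for most coat, cargo receptor and translocon genes, while SEC14L5, SEC61A2 and SEC11C are blue there and COPG2 and SSR3 vary within groups.

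The signal recognition particle, which reads the signal peptide, did not share the rise. SRP54, the subunit that binds the signal peptide, was the only one of 6 to rise, with 12.59, 12.46 and 12.60 on the progenitor arrays, against 11.91, 12.04 and 12.24 on the hESC arrays (change 0.49, SE 0.10, adjusted p = 0.00222). SRP9, which helps to slow translation, fell, with 13.76, 13.65 and 13.92 in progenitors, against 14.30, 14.22 and 14.28 in hESC (−0.49, SE 0.09, adjusted p = 0.00112). Neither gene's progenitor and hESC arrays overlapped. SRP72, which anchors the complex with SRP68, fell by 0.30 (adjusted p = 0.0264), a call that was lost without hESC 1 (adjusted p = 0.0965), progenitor 1 (0.0596) or progenitor 2 (0.0532). SRP14, the partner of SRP9, changed by 0.05 (adjusted p = 0.582), SRP68 by 0.10 and SRP19, an assembly subunit, by −0.27 (adjusted p = 0.0666). SRP19 passed without progenitor 1 (−0.35, adjusted p = 0.0385), and SRP14 had a further probe at 0.49.

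At the translocon, 7 of 11 genes rose, 5 of them at least 2-fold, and 1 fell. TRAM2, a translocon partner known to be needed for collagen synthesis, had the largest rise, with 10.96, 10.72 and 10.85 in progenitors, against 8.75, 8.84 and 9.0 in hESC (1.98, SE 0.11, adjusted p = 5.19e-07). SEC62, which helps chains enter after translation, stood at 8.91, 9.25 and 8.88 in progenitors, against 7.61, 7.40 and 7.38 in hESC (1.55, SE 0.14, adjusted p = 9.23e-06). For both genes all progenitor arrays were well above all hESC arrays. SSR1 and SSR2, of the translocon-associated TRAP complex, rose by 1.20 and 1.21, SSR4 by 0.82 and TRAM1 by 0.83. A further SSR2 probe gave 0.36. SEC61A1, the channel itself, had 13.36, 13.49 and 13.42 in progenitors, against 12.45, 12.18 and 12.50 in hESC (1.05, SE 0.11, adjusted p = 2.41e-05), and without hESC 2 its change was 0.95, under 2-fold. Its close relative SEC61A2 went the other way, with 7.47, 6.98 and 7.0 in progenitors, against 8.15, 8.29 and 8.25 in hESC (−1.08, SE 0.13, adjusted p = 8.49e-05; −0.99 without progenitor 2). SEC61B, a small channel subunit, changed by 0.14 (adjusted p = 0.168) and SEC63, which recruits the chaperone HSPA5 to the channel, by 0.08 (adjusted p = 0.622). SSR3 scattered within groups, from 7.29 to 8.76 in progenitors, against 6.68 to 7.72 in hESC, and its change of 0.43 had an SE of 0.59.

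Signal peptidase, which removes the signal peptide, was divided among its subunits. SPCS3, an accessory subunit, rose, with 10.55, 10.39 and 10.56 in progenitors, against 8.86, 8.86 and 9.19 in hESC (1.53, SE 0.11, adjusted p = 2.47e-06). SEC11C, a catalytic subunit, fell, with 10.54, 9.98 and 10.51 in progenitors, against 11.38, 11.52 and 11.52 in hESC (−1.13, SE 0.15, adjusted p = 0.000108). Every progenitor array lay apart from every hESC array in both genes, and without progenitor 2 the fall of SEC11C was −0.95. The alternative catalytic subunit SEC11A fell by 0.23 (adjusted p = 0.0238), which was lost without hESC 1 (0.0678), hESC 2 (0.0605), progenitor 1 (0.0774) or progenitor 3 (0.0581). SPCS1 and SPCS2 changed by 0.15 and −0.15, with adjusted p of 0.111 and 0.123.

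Among the ER folding genes 4 of 6 rose, 2 of them at least 2-fold. PDIA5, a disulfide isomerase, had 12.10, 12.63 and 12.14 in progenitors, against 10.04, 10.24 and 10.53 in hESC (2.02, SE 0.17, adjusted p = 6.13e-06). P4HB, both a disulfide isomerase and a subunit of the collagen prolyl hydroxylase, had 13.57, 14.09 and 13.57 in progenitors, against 11.92, 12.01 and 12.11 in hESC (1.73, SE 0.15, adjusted p = 6.79e-06). Progenitor 2 was the highest array for both. The lectin chaperone CALR rose by 0.80 (adjusted p = 0.000146) and the isomerase PDIA6 by 0.68 (adjusted p = 0.000315), the carriers of the ER stress element printed above. CANX, the membrane-bound relative of CALR, had 10.07, 10.21 and 10.15 in progenitors, against 9.81, 9.79 and 10.23 in hESC, and overlapped (0.20, adjusted p = 0.18). Without hESC 3 it passed (0.35, adjusted p = 0.00639). PDIA4 changed by 0.14 (adjusted p = 0.258).

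COPII, the coat that leaves the ER, had 9 of 12 genes higher in progenitors, 4 of them at least 2-fold, and none lower. SEC23A, of the inner coat, led with 10.66, 10.59 and 10.76 in progenitors, against 8.25, 8.49 and 8.82 in hESC (2.15, SE 0.14, adjusted p = 1.35e-06). SEC13, of the outer cage, had 12.44, 12.38 and 12.42 in progenitors, against 10.89, 11.08 and 10.63 in hESC (1.55, SE 0.12, adjusted p = 4e-06). SEC24D, a cargo-binding subunit, had 9.58, 9.55 and 9.38 in progenitors, against 7.74, 8.21 and 8.19 in hESC (1.46, SE 0.14, adjusted p = 1.93e-05). In each of the 3 genes the progenitor arrays lay close together and above every hESC array. SAR1B, a GTPase that starts coat assembly, rose by 1.03 (SE 0.14, adjusted p = 0.000124), with 0.94 without hESC 2, 0.98 without progenitor 1 and 0.97 without progenitor 3. SEC16A, the scaffold of ER exit sites, rose by 0.78, and MIA3, which loads procollagen into COPII carriers, by 0.72, with 6.99, 7.10 and 7.22 in progenitors, against 6.10, 6.39 and 6.65 in hESC. The cargo binders SEC24A, SEC24B and SEC24C rose by 0.60, 0.62 and 0.34. SEC23B, SAR1A and SEC23IP did not pass, at −0.11 (adjusted p = 0.295), 0.02 (adjusted p = 0.921) and 0.16 (adjusted p = 0.261), and the change of SAR1A was −0.18 without hESC 3.

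All 12 genes counted in the cargo receptor step, the pseudogene TMED10P1 among them, rose, 6 of them at least 2-fold. KDELR3, a receptor that returns escaped ER proteins, had the largest change of any member, with 12.06, 12.17 and 12.03 in progenitors, against 8.36, 8.57 and 8.10 in hESC (3.74, SE 0.12, adjusted p = 1.57e-08). Its 3 probes gave 3.11 to 3.74. The other KDEL receptor measured, KDELR1, rose by 0.94, with 12.49, 12.72 and 12.45 in progenitors, against 11.66, 11.59 and 11.60 in hESC. SURF4, which exports soluble secreted proteins, stood at 12.36, 12.38 and 12.37 in progenitors, against 10.66, 10.72 and 10.93 in hESC (1.60, SE 0.09, adjusted p = 6.34e-07). The TMED proteins cycle between ER and Golgi in both coats. TMED5 had 12.17, 11.80 and 12.07 in progenitors, against 10.36, 10.37 and 10.44 in hESC (1.62, SE 0.11, adjusted p = 1.44e-06), TMED3 rose by 1.21, TMED9 by 1.12, TMED1 by 1.01, TMED4 by 1.00, TMED7 by 0.93, TMED10 by 0.92 and TMED2 by 0.47. TMED1 was under 2-fold without hESC 3 (0.86) or progenitor 2 (0.97). The pseudogene TMED10P1 gave 0.33, and did not pass under median scaling (0.20, adjusted p = 0.103) or with near-identical arrays averaged (0.38, adjusted p = 0.146). No progenitor array overlapped an hESC array in any of these 12.

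COPI, the coat that returns to the ER, had 6 of 7 subunits higher in progenitors, 4 of them at least 2-fold. COPG1 had 11.43, 11.63 and 11.45 in progenitors, against 10.42, 10.25 and 10.21 in hESC (1.21, SE 0.10, adjusted p = 6.88e-06). COPZ1 rose by 1.16, COPB2 by 1.06, COPB1 by 1.05, COPA by 0.99 and COPE by 0.45. The 3 coat genes whose start regions are printed above changed by nearly the same amount, with 13.24, 13.38 and 13.37 in progenitors, against 12.23, 12.21 and 12.38 in hESC, for COPB2. Of the subunits whose start regions held no TGACGTGG, COPG1 and COPZ1 rose somewhat more, while COPE and COPG2 changed less. A link between these letters and the change was not tested. The subunit that did not pass was COPG2, with 8.0, 10.25 and 9.03 in progenitors, against 8.26, 8.0 and 9.86 in hESC. Its change was 0.38 (SE 0.66, adjusted p = 0.627), and −0.20 without progenitor 2.

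Of the remaining SEC genes, SEC22B, a SNARE that fuses vesicles between ER and Golgi, had 11.26, 10.97 and 11.27 in progenitors, against 9.36, 9.51 and 9.30 in hESC (1.78, SE 0.11, adjusted p = 8.13e-07). Its relatives SEC22A and SEC22C rose by 0.95 and 0.43, and a further SEC22C probe gave −0.45. The lipid-binding SEC14L genes entered by name. SEC14L1 rose by 0.58 and its pseudogene SEC14L1P1 gave 0.72. SEC14L5 was not well above background on any progenitor array, with a measured mean of 5.46 in progenitors, against 8.30 in hESC. Set against the lowest detected signal, at a log2 mean of 6.07, it was at least 4.69-fold lower in progenitors. Limma's test of the measured values, not of this bound, gave an adjusted p of 1.47e-07. The gene passed the detection filter only through hESC and embryoid body arrays. CREB3L2, a membrane-bound transcription factor known in mouse cartilage to switch on Sec23a, had 12.72, 12.88 and 12.77 in progenitors, against 11.12, 11.29 and 11.42 in hESC (1.51, SE 0.10, adjusted p = 1.43e-06).

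**Figure D2:**
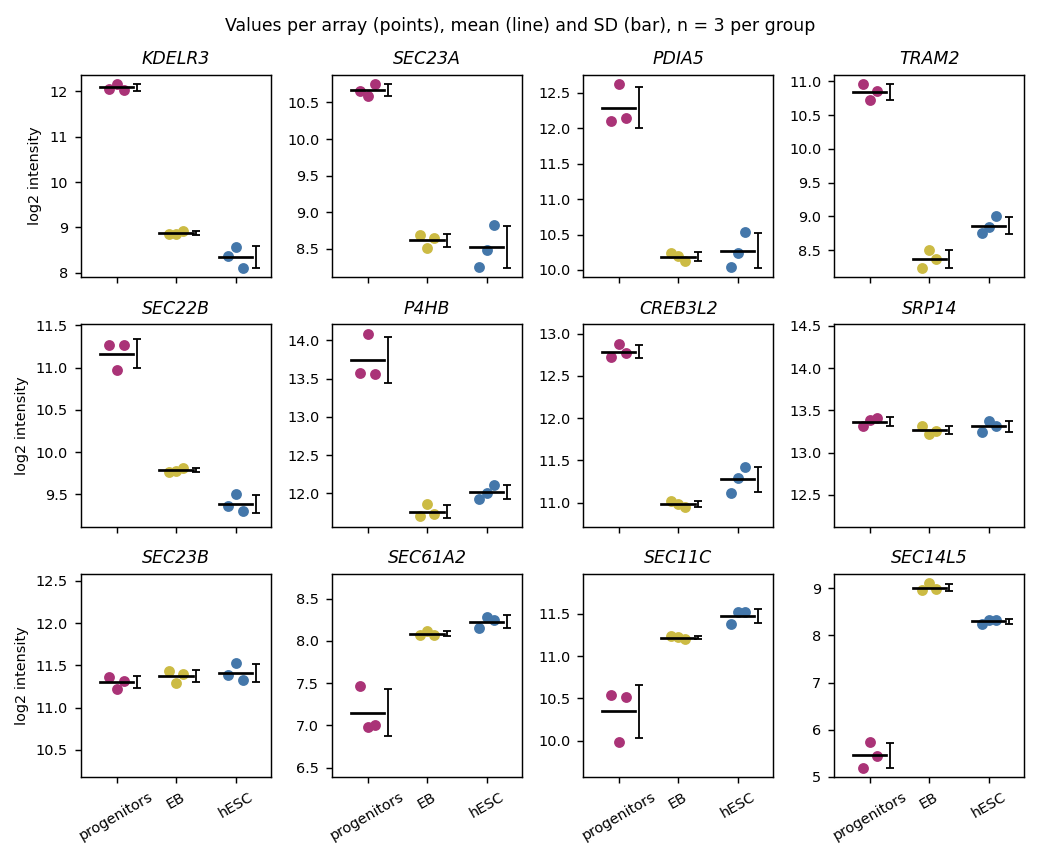
Normalized log2 intensity (vertical axis, scaled per gene) of 12 members on each array of the progenitor, embryoid body and hESC groups, with each point an array, the line the mean and the bar the SD (n = 3). The 7 genes from KDELR3 to CREB3L2 have all progenitor points above both other groups, SRP14 and SEC23B overlap, and SEC61A2, SEC11C and SEC14L5 have all progenitor points below. The genes were chosen after their values were known.

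Related genes within several families differed in their measured change, which the test used here could not call with so few arrays. The difference between 2 related genes was taken on each array and compared between progenitors and hESC by an exact two-sided permutation test, in which 3 against 3 arrays cannot give a p below 0.1. It was computed for 10 pairs. In 7 of them the groups did not overlap, each with an exact p of 0.1 (0.143 adjusted over the 10 pairs by Benjamini-Hochberg). Among single genes, the progenitor arrays lay wholly above the hESC arrays for 32.4% of all genes and wholly below for 39%. Differences between unrelated genes were not computed, so how many pairs would separate without being related is not known. KDELR3 gained 2.81 over KDELR1, and SEC23A gained 2.27 over SEC23B. SEC61A1 gained 2.12 over SEC61A2, the only pair of which 1 rose and the other fell by 2-fold. TRAM2 gained 1.15 over TRAM1 and SEC24D 1.12 over SEC24C. SAR1A lost 1.01 against SAR1B, and SEC11C lost 0.90 against SEC11A. The other 3 pairs overlapped: SEC24A against SEC24B by −0.02 (exact p = 1), TMED3 against TMED10 by 0.29 (exact p = 0.2, adjusted 0.25) and COPG2 against COPG1 by −0.83 (exact p = 0.4, adjusted 0.444). Such a difference shows unequal change within an array and does not compare the genes' levels.

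**Figure D3:**
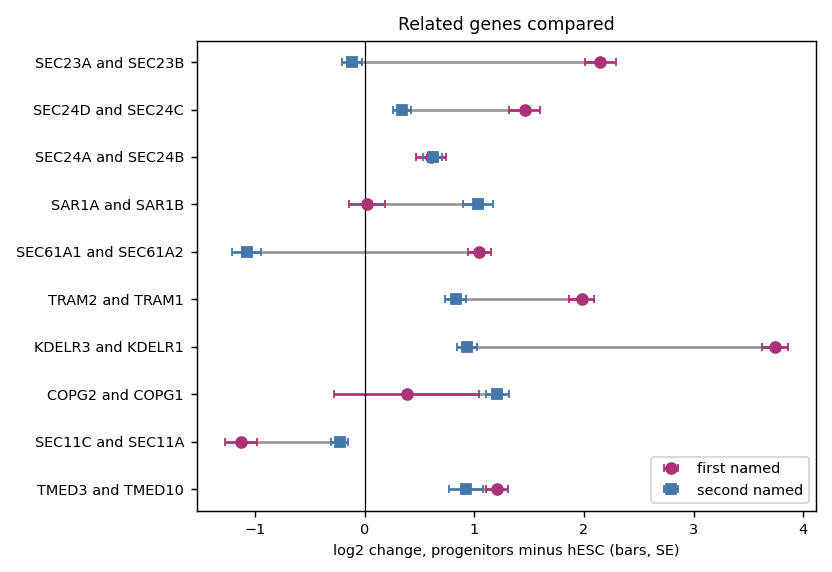
Change in log2 intensity, progenitors minus hESC (horizontal axis, bars 1 SE), for 10 pairs of related genes, with the first named gene as a circle and the second as a square. The circles and squares lie far apart for KDELR3 and KDELR1, SEC23A and SEC23B, and SEC61A1 and SEC61A2, and together for SEC24A and SEC24B.

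Between embryoid bodies and hESC the pathway changed little, as did most genes. No member differed by 2-fold between embryoid bodies and hESC in limma's test, where 3.09% of all genes did (1.5% higher and 1.59% lower). In the same test 17 members had an unadjusted p under 0.05, a level at which all genes were not counted, so this number has no background to be read against. At an adjusted p under 0.05 and any size, 6 members were higher in embryoid bodies and 7 lower, beside 10.7% and 11% of all genes (21.7% together), and the median change was −0.01 for members and for all genes. The embryoid body arrays lay wholly above the hESC arrays for 15 members and wholly below for 19, beside 23.3% and 25.5% of all genes. Under median scaling, which shifts all genes towards lower values in embryoid bodies, 1 member was higher and 31 were lower, and of all genes 446 were higher and 4187 lower. All 13 members that passed are named here. The higher ones were KDELR3 (0.53, adjusted p = 0.0166), TMED5 (0.40), SAR1B (0.44), SEC22B (0.39), SEC22A (0.28) and SEC14L5 (0.72, adjusted p = 0.00686). KDELR3 had 8.86, 8.84 and 8.92 in embryoid bodies, against 8.36, 8.57 and 8.10 in hESC, and SEC14L5 had 8.97, 9.10 and 8.98 in embryoid bodies, against 8.24, 8.33 and 8.34 in hESC. For KDELR3 the further probes gave 0.38 and −0.47, and its call was lost with the mean of all probes (0.15, adjusted p = 0.508) and under median scaling (0.19, adjusted p = 0.267). Of the 6 higher members SEC14L5 alone still passed under median scaling (0.37, adjusted p = 0.0442). The lower ones were TRAM2 (−0.49, adjusted p = 0.0159), SEC61A1 (−0.47, adjusted p = 0.0155), CANX (−0.44), COPG1 (−0.36), PDIA4 (−0.36), SPCS2 (−0.33) and SEC24C (−0.33). TRAM2 had 8.24, 8.50 and 8.38 in embryoid bodies, against 8.75, 8.84 and 9.0 in hESC. These small differences were fragile: 1 member passed without embryoid body 3, 2 without embryoid body 1 or 2, 5 without hESC 1, 6 without hESC 2 and 8 without progenitor 3, while 24 passed when hESC 3 and progenitor 2 were both left out. Calls over all genes moved as well. They numbered 1278 higher and 1319 lower in all arrays, and 715 and 699 without embryoid body 3. Without hESC 3 and progenitor 2 they numbered 2553 and 2824.

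Set against embryoid bodies, progenitors again had most of the pathway higher. Of the 66 members 51 rose and 6 fell, beside 31.2% and 37.8% of all genes (69% together). By at least 2-fold 20 rose and 1 fell, beside 15.3% and 18.9% (34.2% together), and the median change was 0.74, against −0.08 over all genes. Every progenitor array lay above every embryoid body array for 52 members and below for 7, beside 34.1% and 40.7% of all genes. The progenitor arrays are shared with the comparison to hESC, so the counts are not independent. KDELR3 again led, with 12.06, 12.17 and 12.03 in progenitors, against 8.86, 8.84 and 8.92 in embryoid bodies (3.21, SE 0.12, adjusted p = 3.72e-08). TRAM2 had 10.96, 10.72 and 10.85 in progenitors, against 8.24, 8.50 and 8.38 in embryoid bodies (2.47, SE 0.11, adjusted p = 1.16e-07). Neither gene's groups came near each other. PDIA5 rose by 2.10, SEC23A by 2.05, P4HB by 1.98, CREB3L2 by 1.80, COPG1 by 1.57, SEC61A1 by 1.52 and SEC62 by 1.51. The folding genes CANX and PDIA4, which did not pass against hESC, rose over embryoid bodies by 0.65 (adjusted p = 0.00136) and 0.50 (adjusted p = 0.00236). SEC14L5 was at least 7.7-fold lower in progenitors (adjusted p = 3.33e-08 for the measured values, not the bound), and SEC61A2 and SEC11C fell by 0.93 and 0.87. SSR3 changed by 1.22 and did not pass (adjusted p = 0.0908), but it did without embryoid body 3 (1.85, adjusted p = 0.0105).

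Across the 3 groups, the progenitor mean was the highest for 54 of the 66 members (81.8%), against 40.7% of all genes, and the embryoid body mean was the highest for 5 (7.58%), against 29.7%. The embryoid body mean was the lowest for 30 members (45.5%), against 27.1% of all genes. A moderated F-test found a difference among the groups for 57 members (86.4%), against 75.4% of all genes. Over the 9 arrays, the members whose log2 values followed KDELR3 most closely were SSR1 (Pearson r = 0.996), SEC13 (0.993), COPA (0.991), TMED3 (0.99) and SEC22B (0.988), a description only, since the arrays form 3 groups and share their normalization.

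Genes that work beside the members were also mostly higher in progenitors than in hESC. Of 13 genes of the SRP receptor and the oligosaccharyltransferase, which attaches sugar chains in the ER, 12 rose and none fell (median 0.62), led by SRPRA, the receptor that docks the particle, with 10.14, 9.85 and 10.19 in progenitors, against 8.61, 8.53 and 8.74 in hESC (1.43). SRPRB, its partner, rose by 0.91 and OST4 by 0.90. Of 20 further ER folding genes 17 rose, 11 of them at least 2-fold, and 2 fell (median 1.35). The largest were collagen-modifying enzymes: P4HA2, a prolyl hydroxylase subunit that pairs with P4HB, had 12.79, 13.01 and 12.75 in progenitors, against 9.39, 9.48 and 9.55 in hESC (3.38, SE 0.10, adjusted p = 7.32e-09), and the lysyl hydroxylases PLOD1 and PLOD2 rose by 2.57 and 2.32. SERPINH1, the collagen chaperone HSP47, rose by 2.29. HSPA5, the main ER chaperone, had 11.77, 11.89 and 11.80 in progenitors, against 9.51, 9.55 and 9.93 in hESC (2.16, SE 0.12). It was lower in embryoid bodies, with 8.36, 8.44 and 8.29, against the same hESC values (−1.29, SE 0.12, adjusted p = 0.000407).

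Of 28 factors between ER and Golgi, 24 rose, 8 of them at least 2-fold, and 1 fell (median 0.77). YIPF5, a Golgi membrane protein detected on 1 hESC array of 3, rose by 2.63, ERGIC1 by 2.44 (SE 0.43) and MCFD2, a cargo receptor subunit that works with LMAN1, by 2.13. ARCN1, the COPI subunit whose symbol the rule does not cover, had 13.21, 13.24 and 13.14 in progenitors, against 12.28, 12.41 and 12.45 in hESC, a change of 0.82 close to those of the other COPI genes. The clathrin coat and its adaptors, which serve the later Golgi, endosomes and the cell surface, had 11 of 18 genes higher, 2 at least 2-fold, and none lower (median 0.42). The largest were AP1S1 (1.93), AP1M1 (1.44) and AP3M1 (0.72). Among 9 regulators of ER stress 4 rose and 1 fell (median 0.55). MBTPS2 and MBTPS1, the Golgi proteases that cut ATF6 and CREB3 factors free, rose by 2.09 and 1.42, and ATF6 itself by 1.20. MBTPS2 had 10.14, 10.09 and 10.17 in progenitors, against 7.97, 8.18 and 8.0 in hESC. CREB3L4 was not well above background in progenitors and at least 2.18-fold lower there (adjusted p = 1.09e-06 for the measured values, not the bound). Like SEC14L5, it passed the detection filter only through hESC and embryoid body arrays. XBP1 and ATF4 changed by 0.11 (adjusted p = 0.438) and 0.04 (adjusted p = 0.716).

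The matrix proteins that this route carries rose more, by median, than the pathway steps and the neighbouring lists above: 14 of 14 tested genes were at least 2-fold higher in progenitors, with a median change of 4.07. COL3A1, a fibrillar collagen, had 15.19, 15.74 and 15.19 in progenitors, against 6.29, 6.10 and 5.79 in hESC (9.31, SE 0.17, adjusted p = 9.2e-10). The matrix proteoglycan LUM rose by 8.88. COL3A1 and LUM were each detected on only 2 hESC arrays of 3, so the sizes of these changes are uncertain. DCN, not well above background on any hESC array, was at least 148-fold higher in progenitors. It passed the detection filter only through embryoid body and progenitor arrays. With 3 arrays a group, the precision of all values above is limited.

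**Figure D4:**
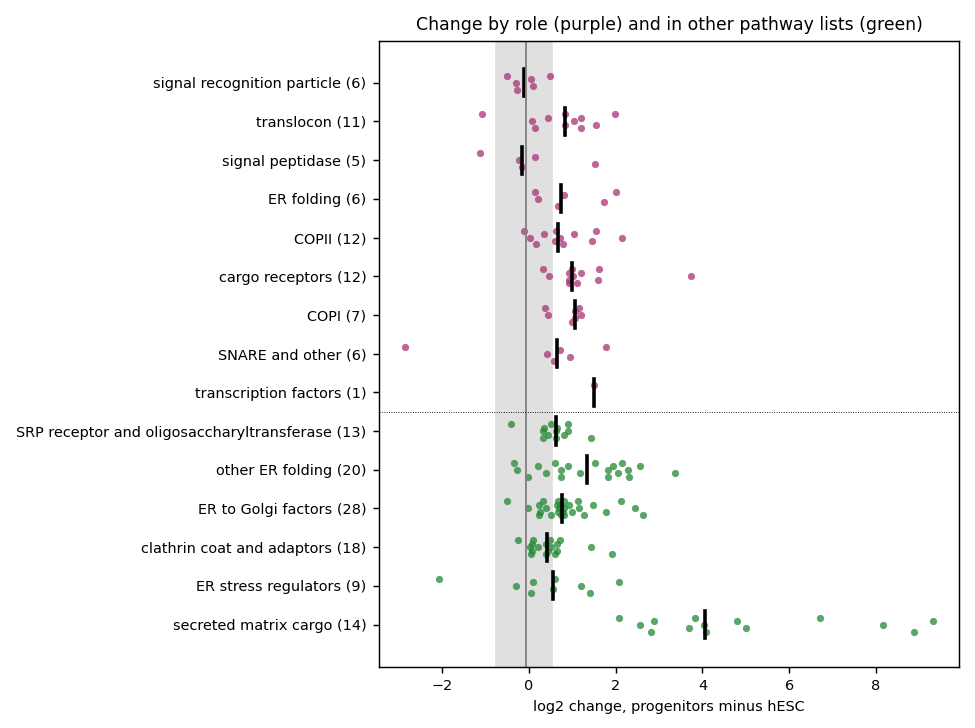
Change in log2 intensity, progenitors minus hESC (horizontal axis), of every gene in each step of the pathway (purple) and in the other lists (green), with each point a gene, the black bar the list's median, the grey line the median of all 11991 genes and the grey band their interquartile range. Points of cargo receptors, COPI and COPII lie mostly right of the band, those of the signal recognition particle within it, and those of secreted matrix cargo far to the right. The number of genes is given beside each name.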

How the data were processed

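Total RNA of 9 H9 samples was hybridised to Illumina bead arrays. The authors deposited a mean intensity and a detection p-value for each of 47323 probes and each array, without normalization, and log2 values for 20127 probes. BeadStudio was used per the submitters' processing notes. The sources used here do not give its version, any background correction or a build. Deposited detection p-values move in steps of 1 in 770, and every probe in the deposited log2 table was detected on at least 4 arrays.

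Values were made from the intensities with neqc of limma 3.58.1 (R 4.3.3): normexp background correction with negative controls estimated through the detection p-values, an offset of 16, quantile normalization and log2. Probes detected (p under 0.05) on at least 3 of 9 arrays numbered 21683, but only those in the authors' table, all detected on at least 4 arrays, were used. Of its 20127 probes, 15592 had 1 gene symbol in the platform annotation, whose names can be old, 4 had several symbols and 4531 had none. Each gene took the probe with the highest mean of the authors' log2 values, which gave 11991 genes. All 9 arrays entered one lmFit and eBayes fit on group, tested two-sided with Benjamini-Hochberg adjustment over all genes. The script was tested on simulated data. RefSeq start regions were matched by symbol.

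The members, their steps, the neighbouring lists and the markers were chosen with earlier results of these data known. Named genes were, in each step, the 4 with the largest change between progenitors and hESC, members of related pairs, those on which 1 array decides a call, and in each other list the 3 largest changes with ARCN1, HSPA5 and SERPINH1. Further members are named so that all are accounted for, and XBP1, ATF4 and ATF6 were named after their values were seen. Alternatives were the authors' values, no background correction, median scaling, other filters, probe rules and offset, a replicate block, averaging of near-identical arrays and leaving out arrays. Dropping the filter on 3 arrays kept the same 11991 genes, so that setting repeats the main result.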

Additional observations from a re-analysis of the deposited data

How the results depend on the processing

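Leaving out each array in turn, members at least 2-fold apart in progenitors over hESC numbered 24 to 29, and 22 to 28 under the other settings. Of all genes, 1685 were higher and 2181 lower by 2-fold without progenitor 2, which gave 24 members. They numbered 1792 and 2326 without progenitor 3, which gave 29, and 1436 and 2790 under median scaling, which gave 22. At an adjusted p under 0.05 the members numbered 40 to 56 over all settings. The 40 came with near-identical arrays averaged, beside 2535 higher and 3149 lower of all genes. The 56 came without hESC 3 and progenitor 2, beside 3977 and 4882. The count of members at an adjusted p under 0.05 between embryoid bodies and hESC, 13 in all arrays, was 1 to 17 when each array was left out, 24 without hESC 3 and progenitor 2 together, 0 with near-identical arrays averaged and 32 under median scaling. Calls over all genes moved with these settings too, to 0 with near-identical arrays averaged. Averaging near-identical arrays also left 32 members for progenitors over embryoid bodies, beside 2002 higher and 2411 lower of all genes. It left 37 members for the F-test, for which all genes were not counted in that setting. Fewer arrays entered that fit. Under median scaling all genes shifted by −0.28 for embryoid bodies over hESC and −0.24 for progenitors over hESC, and by 0.00 for progenitors over embryoid bodies, and the members' medians were −0.30, 0.67 and 0.90. Genes of all kinds called 2-fold between embryoid bodies and hESC numbered 180 higher and 191 lower, 93 and 498 under median scaling, and 77 and 74 in the authors' values. For progenitors over hESC they numbered 1759 and 2286, and 1270 and 1357 in the authors' values.

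In the 2 comparisons with progenitors, directions turned only in members with small or scattered changes, and the cause was not tested. For progenitors over hESC, median scaling gave SEC23IP −0.0055, SAR1A −0.14, PDIA4 −0.11, SRP68 −0.023 and SEC63 −0.12, and SEC63 was −0.028 with near-identical arrays averaged. When arrays were left out, SAR1A ranged from −0.22 (hESC 3 and progenitor 2) to 0.17, being −0.18 without hESC 3, −0.0017 without progenitor 1 and −0.020 without progenitor 2. COPG2 ranged from −0.20 (progenitor 2) to 0.96, and SSR3 from −0.051 (progenitor 1) to 0.68. For progenitors over embryoid bodies, median scaling gave SAR1A 0.14, SEC23B 0.13 and SEC63 0.013, and COPG2 was 0.011 with near-identical arrays averaged. When arrays were left out, COPG2 ranged from −0.86 to 0.27 (progenitor 1), and SAR1A from −0.093 to 0.023 (progenitor 3), being 0.014 without embryoid body 2. For embryoid bodies over hESC, only the 13 members that passed were followed through the settings. Of these SEC22A turned, to −0.054 under median scaling. Turns among the other members were not counted there, where the members' median moved to −0.30. The difference between SEC24A and SEC24B was 0.11 without hESC 3 and progenitor 2, and between −0.14 and 0.14 when each array was left out (0.14 without hESC 3, 0.01 without progenitor 3).

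Array numbers did not pair the groups: over 9 same-numbered pairs, deviations from the group means correlated at −0.12 to 0.06, and 0 arrays correlated best with their own number. With the replicate number as a block, 27 members were called 2-fold for progenitors over hESC, beside 1759 higher and 2288 lower of all genes. For progenitors over embryoid bodies 21 members were called, beside 1840 and 2263. For embryoid bodies over hESC 0 members were called, beside 180 and 181. At an adjusted p under 0.05, 5 members passed in the last comparison, beside 987 higher and 970 lower of all genes.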
